A study of Mus musculus with 4 samples.

Results

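The 50 inflamed spots are the positions of a mouse facial skin section, labelled unwounded, in which transcripts of 6 inflammatory genes took the largest share of all captured transcripts. They were chosen among the 653 spots of that section that held at least 1000 unique molecular identifiers (UMIs, each counting 1 captured transcript), out of 671 spots in the section and 3530 in the series. The score of a spot was the percentage of its UMIs that came from Cxcl2, Il1b, Clec4d, Ccl3, Ccl4 and Cd14, and ties were broken by barcode order. Because these values chose the spots, each difference between the inflamed spots and the rest of their section is a description with no test.

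Gene expression was measured with 10x Visium, which captures the RNA of a frozen section on a grid of barcoded spots, each wide enough to pool RNA from neighbouring cells of more than 1 type. All 4 sections came from wildtype mice and were flash-frozen, with no strain or age in the labels. The groups were facial skin labelled unwounded, which holds the inflamed spots, facial skin at postoperative day 4, oral mucosa at postoperative day 4 and unwounded oral mucosa. Each group held 1 section, so spots were not treated as replicates, no p-value was computed, and every 95% interval covers counting error only.

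Neutrophils are short-lived phagocytes that leave the blood at sites of injury or infection, drawn by CXC chemokines such as Cxcl2 and Cxcl3 that bind the receptor Cxcr2. Interleukin-1 beta, the product of Il1b, acts on surrounding cells through the transcription factor NF-kappaB, and those cells then release more chemokines. Macrophages later take up dying neutrophils, a step in which the bridging proteins Gas6 and Pros1 and the receptors Axl, Mertk and Tyro3 take part.

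Cxcl2 is a score gene and Cxcl3, which lies close to it on chromosome 5, had the largest ratio to the other spots among the genes named here. The 120 bases before their starts are therefore shown beside those of Cxcl1, another neutrophil attractant of the same cluster. They are RefSeq sequences on GRCm38.p6, plus strand, at chr5:90903779-90903898 for Cxcl2, chr5:90785981-90786100 for Cxcl3 and chr5:90891125-90891244 for Cxcl1. Capitals mark the run GGGAATTTCCC, which holds the NF-kappaB-like motif (GGGA, any 2 bases, TTCC) on both strands, as 2 overlapping matches, and which begins 97, 73 and 71 bases before the start of Cxcl2, Cxcl3 and Cxcl1.
Cxcl2: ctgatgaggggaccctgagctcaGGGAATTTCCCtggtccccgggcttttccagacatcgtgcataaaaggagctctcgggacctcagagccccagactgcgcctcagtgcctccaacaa
Cxcl3: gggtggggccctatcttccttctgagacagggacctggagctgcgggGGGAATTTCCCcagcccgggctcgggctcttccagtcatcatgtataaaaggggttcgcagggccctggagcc
Cxcl1: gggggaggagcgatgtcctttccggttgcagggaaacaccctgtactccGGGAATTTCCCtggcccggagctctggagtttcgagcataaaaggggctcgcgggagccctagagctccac
The motif, searched on both strands, stood in the 250 bases before the start in 397 of 32851 RefSeq promoters (1.21%), and in the nearest 120 bases in 199 (0.606%). Together the score genes, Cxcl1, Cxcl3 and the 20 genes with the highest ratios made 27 genes, of which 23 had a promoter that was searched, and only the 3 shown held the motif. A match describes letters and is not evidence of a binding site.

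The 4 sections held 3004174 to 11939479 UMIs, with the section labelled facial unwounded the deepest. Inflamed spots were shallower than the rest of their section, with 1014 UMIs in the lowest, a median of 6108 and 15212 in the highest, against a median of 17501 in the 621 other spots. Their mitochondrial share had a median of 1.48%, against 2.41% in the other spots. The Y-linked genes Ddx3y and Eif2s3y were at 74.3 and 83.2 CPM (UMIs per 1000000 UMIs of the summed spots) in the inflamed spots and at 48.4 and 71.4 CPM in the other spots. The inflamed spots held 0 UMIs of Xist, the RNA of the inactive X chromosome, and the 50 highest-scoring spots of the day 4 facial and oral sections held 0 UMIs of both Y-linked genes and 116 and 38.7 CPM of Xist. Barcodes mark array positions, and 1, 10 and 34 of the inflamed spots' barcodes lay under tissue in the day 4 facial, day 4 oral and unwounded oral sections.

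Position did not enter the score, and the inflamed spots lay together. Joined to their nearest neighbours on the array, they formed 4 patches of 45, 3, 1 and 1 spots, and 48 of the 50 touched another inflamed spot. The large patch covered array rows 26 to 32 and columns 52 to 71, at the lower margin of the larger of 2 tissue pieces, which had 519 spots in rows 12 to 32. The patch of 3 lay at rows 25 and 26, columns 77 to 79, and the single spots lay at row 22, column 104 and at row 25, column 71. These single spots held 1045 and 1014 UMIs, just above the minimum, and scored 0.287% and 0.296%. Each was therefore chosen on very few transcripts of the score genes. None of the 142 spots of the smaller piece was among the inflamed spots. The inflamed spots did not differ much from the rest in how often they lay at an edge: 27 of 50 (54%) had tissue under all 6 neighbouring positions, against 359 of 621 other spots (57.8%).

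**Figure D1:**
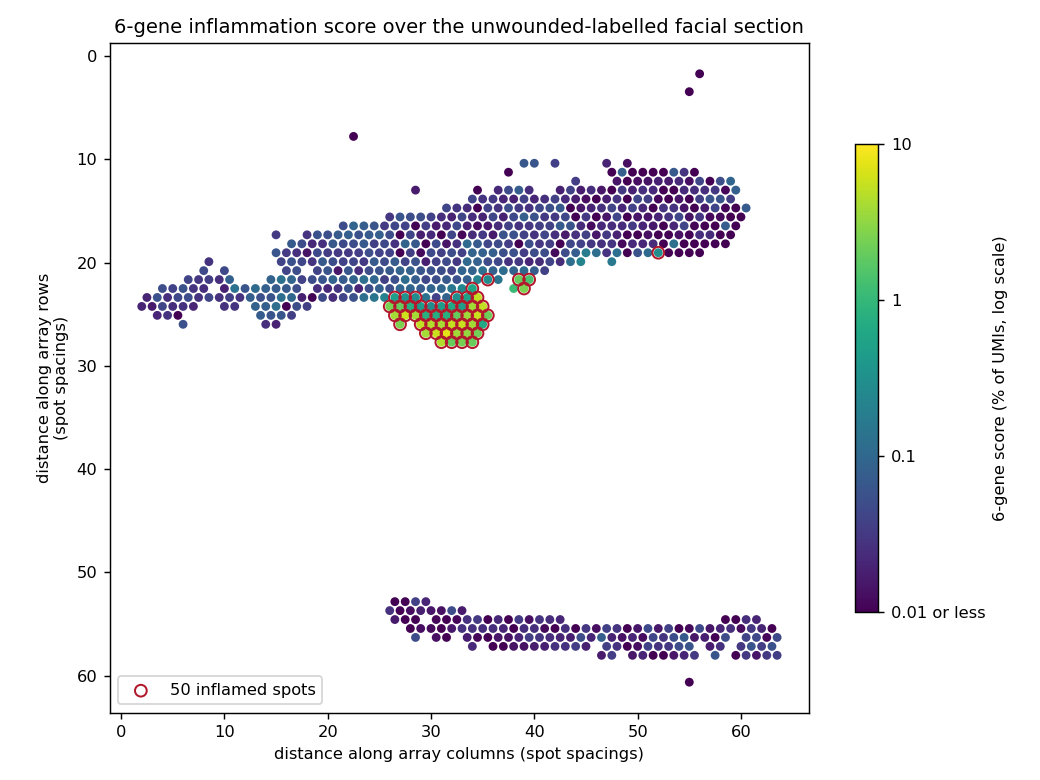
Map of the facial section labelled unwounded, with each tissue spot placed by array column and row in units of spot spacing and coloured by its 6-gene score (percent of UMIs, log colour scale). Red rings mark the 50 inflamed spots, 45 of which form 1 patch at the lower margin of the larger tissue piece.

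The score differed between the rows of the patch. The patch's spot in row 26, at column 68, had 0.595%. The median was 0.405% in the 6 spots of row 27 and 0.69% in the 10 spots of row 28, on the side facing the rest of the tissue. It was 2.88% in the 10 spots of row 29, 4.27% in the 8 spots of row 30, 3.87% in the 6 spots of row 31 and 2.2% in the 4 spots of row 32. By row, the score was therefore lowest in rows 26 to 28 and highest in row 30. Single spots departed from this, since the spots of ranks 7 and 8 (5.33% and 5.32%) lay in rows 28 and 27.

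The score was 7.36% in the highest spot, had a median of 2.21% and was 0.276% in the 50th spot. Just outside the threshold lay spots with 0.253% and 0.224%, and 1 spot that was too shallow to be chosen, with 719 UMIs, had 1.11%. The values were not evenly spread: rank 31 had 1.95%, rank 32 had 1.37% and rank 33 had 0.798%, so 32 spots were at or above 1% and 18 below it. All 3 spots of the patch of 3 and 29 of the 45 spots of the large patch reached 1%, and neither single spot did. Over all spots of the section the median score was 0.0323%.

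Each of the 6 score genes had a UMI in 47 to 49 of the 50 inflamed spots. Il1b, the interleukin-1 beta gene (chr2:129364569-129371164), was at 0 CPM in the lowest inflamed spot, a median of 10217 and 22586 CPM in the highest, and its median in the other spots was 107 CPM. Over the summed UMIs it was at 8229.7 CPM in inflamed spots and 137 CPM in other spots, a 60.1-fold difference (95% interval 56.5 to 64). Cxcl2 (chr5:90903899-90905938) had 0, 6255 and 26284 CPM in the lowest, median and highest inflamed spot, and 7133 CPM in the inflamed sum against 97.6 CPM in other spots (73.1-fold). Both genes had no UMI in 1 of the 50 spots, and the highest of the other spots reached 5563 CPM of Il1b and 4172 CPM of Cxcl2, so the ranges overlapped.

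Cd14, the co-receptor for bacterial lipopolysaccharide, was at 2386 CPM in inflamed spots and 33.5 CPM in other spots (71.2-fold). Clec4d, a C-type lectin receptor of myeloid cells, was at 2109 CPM in inflamed spots and 35.3 CPM in other spots (59.7-fold). Ccl4 and Ccl3, CC chemokines that attract leukocytes, were at 1245 and 1206 CPM in inflamed spots and at 17.1 and 19.4 CPM in other spots. When each score gene was left out of the score and the 50 spots were chosen again, 49 or 50 of the spots were the same. The gene left out differed 59- to 72.9-fold between the newly chosen spots and the rest, the smallest being Il1b and the largest Ccl4. Because the spots were nearly the same, these folds are not independent of those above and give no separate support.

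**Figure D2:**
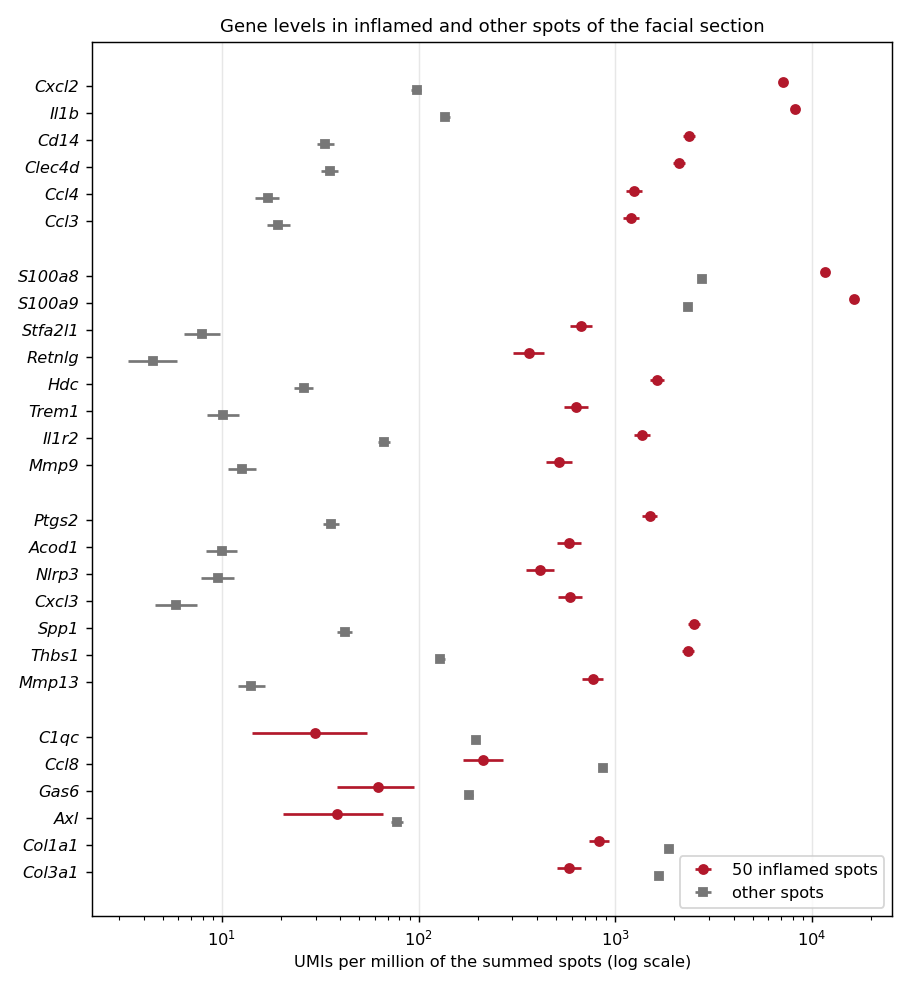
Levels of named genes in CPM of the summed spots (horizontal log axis), red circles for the 50 inflamed spots and grey squares for the 621 other spots, with exact 95% Poisson intervals of counting error. The score genes form the top group, neutrophil markers the second, and the bottom group holds genes that were lower in inflamed spots.

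In what follows a gene is called higher or lower in inflamed spots when the ratio of its CPM reached 2-fold and the 95% exact Poisson intervals lay apart, among genes with at least 20 UMIs over both spot sets. Of 13254 such genes 756 were higher (5.7%) and 1139 lower (8.59%), and the median log2 ratio of all of them, with 10 CPM added to both sides, was -0.29. Since the score used this contrast, nothing is read from these counts. Scaling moved the split: with TMM factors, which shift the all-gene median to -0.14, 1027 genes were higher and 564 lower. Choosing 100 spots gave 404 higher and 311 lower, and asking for 5000 UMIs per spot gave 495 and 519. Inflamed and other spots can differ in how many cells of a type they hold or in RNA per cell, and these cannot be told apart here.

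Neutrophil markers were the list that stood highest. Of its 16 genes 15 had enough UMIs and 14 were higher in inflamed spots, none lower, with a median log2 ratio of 3.67 against -0.29 for all genes. The exception was Mmp8, a collagenase of late granulocyte precursors, with 1 UMI in inflamed spots, and Ly6g had under 20 UMIs in all. S100a9 and S100a8, which form calprotectin, were the most abundant, at 16352 and 11727 CPM in inflamed spots and 2352 and 2776 CPM in other spots. Their log2 ratios were 2.8 and 2.08, smaller than those of most other members.

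The less abundant neutrophil markers differed more. Stfa2l1, a stefin of the neutrophil cysteine protease inhibitor cluster, had 0, 625 and 2755 CPM in the lowest, median and highest inflamed spot, and 671 CPM in the inflamed sum against 7.93 CPM in other spots (84.7-fold, 95% interval 66.2 to 109). It and Cstdc4, at 1200.3 CPM in inflamed spots and 16 CPM in other spots, belong to a family of near-identical copies, so how their counts were divided is uncertain. Retnlg, a resistin-like secreted protein of neutrophils, was 80.9-fold higher, at 362 CPM in inflamed spots and 4.48 CPM in other spots. Hdc, the enzyme that makes histamine, was at 1637 CPM in inflamed spots and 26.1 CPM in other spots (62.7-fold).

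Trem1, a receptor that amplifies neutrophil and monocyte activation, was at 633 CPM in inflamed spots and 10.2 CPM in other spots (62.2-fold). Il1r2, the decoy receptor that binds interleukin-1 without signalling, was at 1367 CPM in inflamed spots and 67.1 CPM in other spots (20.4-fold). Both were found in most inflamed spots, 42 and 45 of 50. The granulocyte receptor Csf3r was at 437 CPM in inflamed spots and 25.2 CPM in other spots.

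Granule protein genes, most of which neutrophils transcribe in the bone marrow before release, summed to 135 UMIs (401 CPM) in the inflamed spots. Of 10 listed, Ltf, Camp, Ngp, Elane, Mpo, Prtn3 and Ctsg each had under 20 UMIs over both spot sets. Lcn2 was at 196 CPM in inflamed spots and 190.4 CPM in other spots, and of the 3 with enough UMIs only the integrin Itgam was higher, 3.38-fold. Against the spots within 3 steps both Lcn2 and Itgam were higher.

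Over the summed spots, pan-leukocyte genes were mostly higher and macrophage markers were not. Of 12 pan-leukocyte genes 10 were higher in inflamed spots and none lower, among them Srgn, the proteoglycan core of secretory granules, at 5959.9 CPM in inflamed spots and 187 CPM in other spots (31.9-fold), and the signalling adaptor Tyrobp at 980.4 and 88 CPM (11.1-fold). Srgn had at least 957 CPM in every inflamed spot and 17336 CPM in the highest. Of 14 monocyte and macrophage markers 2 were higher and 2 lower, with a median log2 ratio of -0.34. The higher ones were Fcgr3, an Fc receptor shared with neutrophils (3.51-fold), and Arg1, which epidermal cells also express (15.7-fold). Csf1r, the receptor for macrophage colony-stimulating factor, was lower, at 38.6 CPM in inflamed spots and 78.2 CPM in other spots, and Lyz2 was at 267 CPM in inflamed spots and 288 CPM in other spots. Per spot, the summed share of these 14 markers was higher, with a median of 0.108% in inflamed spots and 0.0555% in other spots.

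Markers of resident macrophages were lower, 8 of 12 by the calling rule and none higher, with a median log2 ratio of -1.29. C1qc, a subunit of complement C1q, was at 29.7 CPM in inflamed spots and 195 CPM in other spots, 6.56-fold lower (95% interval 3.56 to 13.7), and had a UMI in 7 of the 50 inflamed spots. C1qa and the mannose receptor Mrc1 were 3.44- and 3.04-fold lower. T and NK cell markers could hardly be measured, since their sum was 50.5 CPM in inflamed spots, and 0 of the 10 with enough UMIs were called either way.

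Among CXC chemokines outside the score, 2 of the 3 with enough UMIs were higher in the inflamed spots. Cxcl3, an attractant of the Cxcl2 cluster, had 0, 531 and 2467 CPM in the lowest, median and highest inflamed spot and no more than 152 CPM in any other spot. Summed, it was at 588 CPM in inflamed spots and 5.86 CPM in other spots (100.4-fold, 95% interval 75.8 to 134). Cxcl1 was at 71.3 CPM in inflamed spots and 24.6 CPM in other spots (2.9-fold), and Cxcl5 at 20.8 and 26.1 CPM was not called.

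Of 15 CC and interferon-induced chemokines outside the score 1 was higher and 8 were lower, with a median log2 ratio of -1.10, but against the spots within 3 array steps 2 of 10 were higher and 1 lower, with a median of -0.05. Ccl8, a monocyte attractant made by skin macrophages, was at 214 CPM in inflamed spots and 869 CPM in other spots (4.06-fold lower). The epidermal chemokines Ccl27a and Ccl20 were 6.77- and 7.27-fold lower, and Ccl20 had 3 UMIs in inflamed spots (95% interval of the ratio 2.48 to 35.3). Cxcl14 was 3.19-fold lower.

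Among 18 other inflammatory cytokine genes with enough UMIs, 8 were higher and none lower, with a median log2 ratio of 0.77. Osm, oncostatin M, was at 244 CPM in inflamed spots and 6.46 CPM in other spots (37.7-fold), Csf3, which encodes granulocyte colony-stimulating factor, at 146 and 3.88 CPM (37.5-fold), and Tnf at 199 and 8.19 CPM (24.3-fold). Il1rn, which encodes the interleukin-1 receptor antagonist, was at 903 CPM in inflamed spots and 182 CPM in other spots (4.97-fold). Il6 was not called, at 5.94 CPM in inflamed spots and 6.81 CPM in other spots.

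Enzymes and receptors of activated phagocytes were higher together. In the list of prostaglandin, oxidase and itaconate genes 7 of 11 were higher and 1 lower. Ptgs2, the inducible cyclooxygenase, had 0, 1497 and 6099.5 CPM in the lowest, median and highest inflamed spot, and the sum was 1500.4 CPM in inflamed spots against 35.9 CPM in other spots (41.7-fold, 95% interval 36.6 to 47.6). Acod1, which makes itaconate, was 58.5-fold higher and Hcar2, the niacin receptor, 14.6-fold higher. The gene called lower was Cybb, the catalytic subunit of the phagocyte oxidase, with 2 UMIs in inflamed spots.

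Of 15 pattern recognition receptors 9 were higher and 1 lower, including the inflammasome sensor Nlrp3 at 416 CPM in inflamed spots and 9.57 CPM in other spots (43.5-fold) and the lectin receptor Clec4e at 487 and 12.5 CPM (39-fold). Of 18 NF-kappaB feedback and target genes 9 were higher and none lower, with Nfkbid 18.5-fold and Ier3 8.29-fold higher. Of 14 immediate early genes of the AP-1 and EGR families 12 were higher, and none was lower. Junb, an AP-1 subunit present in all 50 inflamed spots, was at 2098 CPM in inflamed spots and 565 CPM in other spots (3.72-fold), and the phosphatase gene Dusp1 was 5.36-fold higher. The count of early genes was 4 when 100 spots were chosen and 4 when spots of at least 5000 UMIs were used.

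Secreted matrix and protease genes stood out one by one. Spp1, osteopontin, had 0, 1751 and 12841 CPM in the lowest, median and highest inflamed spot, and 2525 CPM in the inflamed sum against 42.1 CPM in other spots (60.0-fold). Thbs1, thrombospondin, was at 2338 CPM in inflamed spots and 129 CPM in other spots (18.1-fold). Plaur, the urokinase receptor, was 37.3-fold higher and Adam8, a leukocyte sheddase, 17.4-fold higher. In contrast Postn and Lox, which fibroblasts use to build and crosslink matrix, were 4.73- and 15.4-fold lower, and Lox had 2 UMIs in inflamed spots (95% interval 4.25 to 127).

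Several lists of the deeper skin were low in the inflamed spots, but of 10 endothelial markers none was called either way (median log2 ratio -0.53). Fibroblast markers were lower in 10 of 12 cases with none higher (median log2 ratio -1.32), for example Lum, a collagen-binding proteoglycan, at 152 CPM in inflamed spots and 573 CPM in other spots. Sebaceous gland markers were lower in 7 of 12, such as Scd1, the lipid desaturase of sebocytes, at 1126 CPM in inflamed spots and 4244 CPM in other spots. Skeletal muscle markers were lower in 10 of 12, and the lowest genes of the whole comparison were largely muscle genes such as Acta1, Myh1 and Mustn1. Per spot, however, the skeletal muscle share had a median of 0.0164% in inflamed spots and 0.0161% in other spots. It reached 7.22% in the highest of the other spots. Mfap4, a microfibril protein gene, and Flnc, a muscle filamin, had 0 UMIs in inflamed spots, at least 5.35- and 4.59-fold lower against a floor of 3 UMIs over the summed spots.

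These differences depended on which spots were chosen and which were set beside them. With 100 spots chosen, 0 fibroblast markers and 1 resident macrophage marker were lower. Against the 85 spots within 3 array steps, 568 of 8786 genes were higher (6.46%) and 398 lower (4.53%), with an all-gene median log2 ratio of -0.24. All 14 neutrophil markers with enough UMIs were higher there too, with Cxcl2 40.3-fold, Retnlg 78.1-fold and Cxcl3 109-fold higher. None of 11 fibroblast markers, 10 resident macrophage markers or 3 muscle markers was lower, and Acta1 was at 50.5 CPM in inflamed spots and 65.8 CPM in the nearby spots. Monocyte and macrophage markers turned to 6 higher of 12, with Lyz2 at 267 CPM in inflamed spots and 89.7 CPM in nearby spots. Cell division genes were lower in 6 of 12 against the nearby spots and in 6 of 12 against all other spots.

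Of the 5 genes of Gas6 signalling, which the series' title names, 2 were lower in the inflamed spots and none higher. Gas6 was at 62.4 CPM in inflamed spots and 181 CPM in other spots (2.9-fold lower, 95% interval 1.89 to 4.69), and Axl at 38.6 and 77.7 CPM (2.01-fold lower, 1.17 to 3.79). Gas6 had a UMI in 16 inflamed spots and Axl in 12. Pros1 at 41.6 CPM in inflamed spots and 78.8 CPM in other spots and Tyro3 at 50.5 and 50.2 CPM were not called, and Mertk had 0 UMIs in inflamed spots and 43 in other spots, too few for a fold. Against the spots within 3 steps neither Gas6 (62.4 CPM in inflamed and 92.1 CPM in nearby spots) nor Axl (38.6 and 58.8 CPM) was called, and with TMM factors the log2 ratio of Axl was -0.74, short of 2-fold.

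Genes of the cornified layer differed among the inflamed spots. Over the sum, 3 of 15 cornifying epidermis markers were higher and none lower, with a median log2 ratio of -0.01. Flg, which encodes filaggrin, was at 9091 CPM in inflamed spots and 3208 CPM in other spots, and Lor, loricrin, at 11209.7 and 4993 CPM. Both came from the lower-scoring inflamed spots: Flg was at 2848 CPM in ranks 1 to 25 and 13638 CPM in ranks 26 to 50, and Lor at 3159 and 17073 CPM. Among the 25 highest spots alone neither was higher than in the other spots, with log2 ratios of -0.25 and -0.72.

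Across the 50 spots the summed share of neutrophil markers followed the score (Spearman 0.93) and that of cornifying epidermis markers ran against it (Spearman -0.75). These are descriptions over spots of 1 library that share a total and lie side by side, and spot depth ran weakly against the score as well (Spearman -0.34). Neutrophil markers made up 0.51% of UMIs in the lowest inflamed spot, 3.9% in the median and 8.84% in the highest. Cornifying markers made up 1.04%, 2.6% and 15.5%. S100a9 and Thbs1 (both Spearman 0.94) followed the score closely, and Lgals7, Krt10 and Krt1, all genes of epidermal keratinocytes, ran against it (Spearman -0.77, -0.75 and -0.74).

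**Figure D3:**
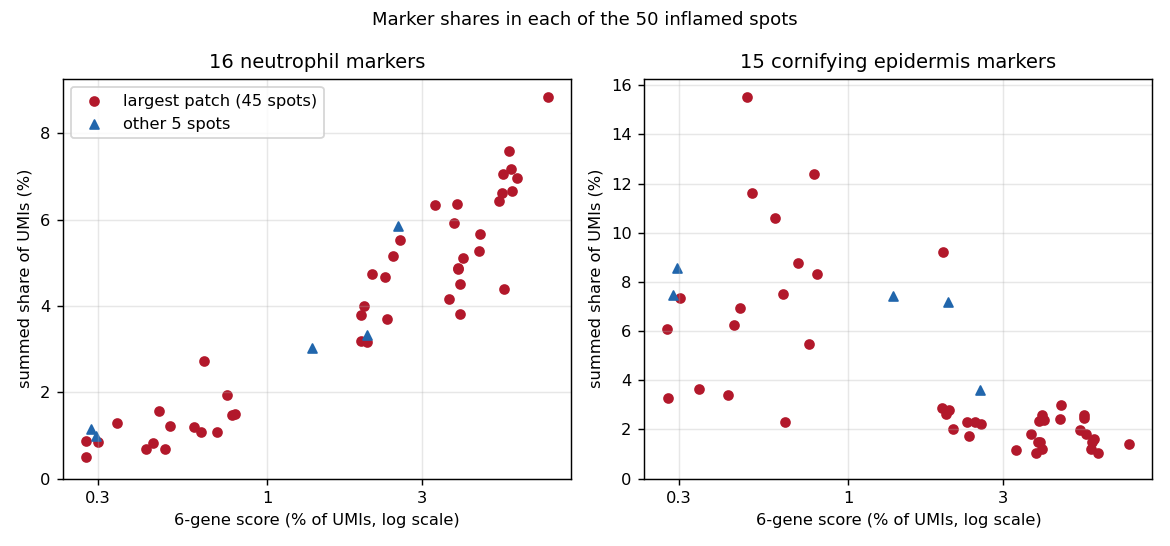
Summed share of UMIs (vertical axes, percent) of the 16 neutrophil markers, left, and the 15 cornifying epidermis markers, right, against the 6-gene score of each of the 50 inflamed spots (log axis). Circles are the 45 spots of the large patch and triangles the other 5 spots. Neutrophil shares reach 8.84% at the highest score, and cornifying shares reach 15.5% among low scores.

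Genes of injured or activated keratinocytes differed less than neutrophil markers. Of 16 listed, 7 were higher and none lower, with a median log2 ratio of 0.79, and Plaur was also the largest of these. Across the 50 inflamed spots the summed share of the list ran against the score (Spearman -0.40), while Plaur followed it (Spearman 0.89). The keratins Krt6a and Krt16, which keratinocytes switch on after wounding, were at 3684 and 6177 CPM in inflamed spots and at 2180.0 and 4103 CPM in other spots, under 2-fold each. Hbegf and Areg, ligands of the epidermal growth factor receptor, were 2.37- and 2.35-fold higher. Slpi, an inhibitor of neutrophil elastase, was at 1028 CPM in inflamed spots and 63.3 CPM in other spots (16.2-fold), while the acute-phase gene Saa3 was 3.31-fold lower.

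Of the 20 genes with the highest ratios, Mmp13, Mmp9 and Ifi202b followed the score least (Spearman 0.24, 0.40 and 0.42). Mmp13, a collagenase, was at 769 CPM in inflamed spots and 14.1 CPM in other spots (54.4-fold), with 776 CPM in ranks 1 to 25 and 765 CPM in ranks 26 to 50. Its UMIs were concentrated, with 138 of 259 (53.3%) in 5 spots that held 11.1% of all UMIs of the inflamed spots, and 48 of them in the spot at row 29, column 65. The same 5 spots held 52.6% of the UMIs of Lama3, a laminin subunit gene, and 45.1% of those of the gelatinase Mmp9. They held 11.4% of the UMIs of Il1b and 12.8% of those of Cxcl2, close to their share of all UMIs. One of the 5 spots, at row 25, column 79, lay outside the large patch.

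Arg1, arginase, which was not among those 20 genes, was at 70.5 CPM in ranks 1 to 25 and 395 CPM in ranks 26 to 50. Over the 50 spots its level followed Lce3f and Crct1, genes of the late cornified layer (Spearman 0.68 and 0.61), and not Lyz2, Spp1 or Csf1r (Spearman 0.09, -0.18 and -0.03). Mmp13, Arg1 and the genes compared with them here were picked out after their values were seen, and the 5 spots were chosen by Mmp13.

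The score genes summed to 22309 CPM in the inflamed spots and 1168 CPM in the 23 spots at 1 array step. They were at 495 CPM in the 29 spots at 2 steps and 282 CPM in the 227 spots at over 10 steps. The choice of spots sets the first drop, since no other spot with at least 1000 UMIs scored above 0.253%. Outside the score, neutrophil markers without S100a8 and S100a9 were at 6554 CPM in inflamed spots and 436 CPM at 1 step. They were at 265 CPM at 2 steps and 259 CPM at over 10 steps. The full list was at 34633 CPM in inflamed spots, 5152 CPM at 1 step and 3046 CPM at 2 steps, and was higher again, at 6006 CPM, at over 10 steps. Its most abundant member, S100a9, was at 16352 CPM in inflamed spots, 2092 CPM at 1 step, 1111 CPM at 3 steps and 2837 CPM at over 10 steps.

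Other tissue genes also changed with distance. Cornifying epidermis markers summed to 51529.5 CPM in inflamed spots, 65907 CPM at 1 step and 25809 CPM at over 10 steps. Resident macrophage markers stayed between 643 and 736 CPM from the inflamed spots to 3 steps away and were at 2177 CPM at over 10 steps, and Ccl8 was at 214 CPM in inflamed spots, 272 CPM at 3 steps and 1283 CPM at over 10 steps. Sebaceous markers peaked at 4 to 5 steps, with 18197 CPM against 3108 CPM in the inflamed spots. Gas6 was at 62.4 CPM in inflamed spots, 97.8 CPM at 3 steps and 264 CPM at over 10 steps. The layout of the skin changes over the same distances, and its part in these values was not tested.

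**Figure D4:**
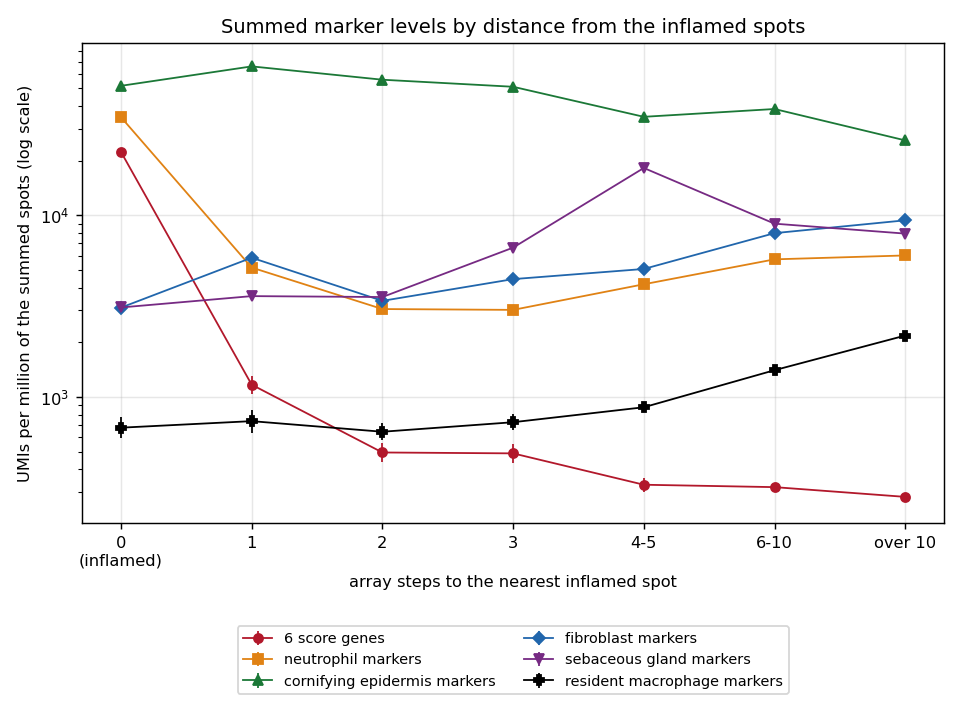
Summed levels of 6 gene lists in CPM (vertical log axis) in the inflamed spots and in spots grouped by array steps to the nearest inflamed spot, with exact 95% Poisson intervals of counting error. The score genes drop from 22309 CPM to 1168 CPM at 1 step, which the choice of spots sets. Resident macrophage markers are highest, at 2177 CPM, beyond 10 steps.

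The same score was then applied to the other sections. The 50 highest spots of day 4 oral mucosa had a highest score of 1.18% and a median of 0.186%, those of day 4 facial skin 0.646% and 0.0388%, and those of unwounded oral mucosa 0.0415% and 0.00386%, all below the inflamed spots with 7.36% and 2.21%. Among spots with at least 1000 UMIs, the lowest inflamed score, 0.276%, was reached by 15 of 365 in day 4 oral mucosa. It was reached by 1 of 1096 in day 4 facial skin and 0 of 523 in unwounded oral mucosa. In the facial section labelled unwounded the count was 50 of 653, which the rule sets. The cut-off was the score of that section's own lowest inflamed spot, so no ranking of the sections is read from these counts. In day 4 oral mucosa the 50 spots also lay together, in 6 patches with 44 spots in the largest. Those of day 4 facial skin were scattered over 33 patches of at most 4 spots, but were chosen on few transcripts. Over all 50 of them Cd14 had 38 UMIs, Il1b 33, Clec4d 31, Cxcl2 19, Ccl4 14 and Ccl3 5.

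**Figure D5:**
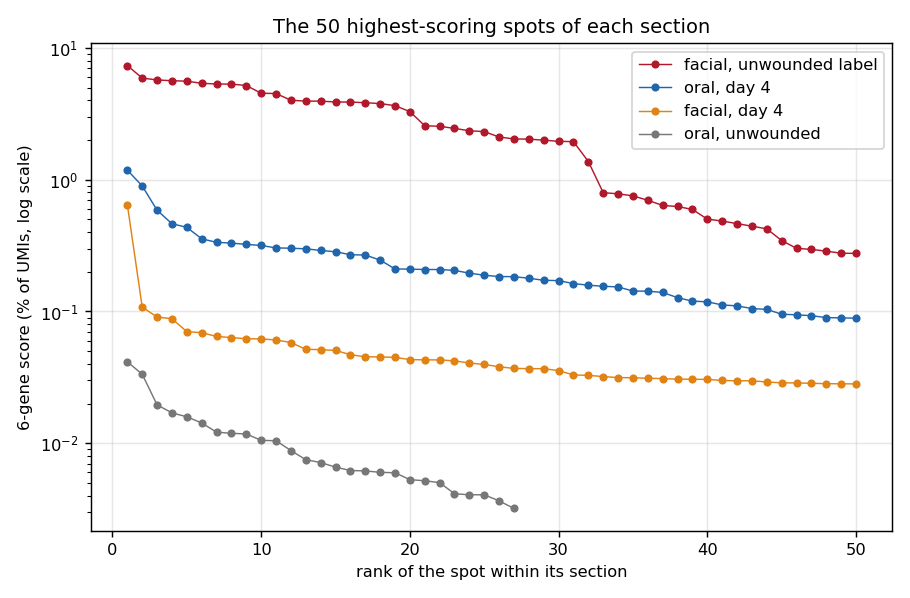
Score of the 50 highest spots in each of the 4 sections (percent of UMIs, vertical log axis) against rank within the section, with spots at 0 not drawn. The inflamed spots of the facial section labelled unwounded run from 7.36% to 0.276%, above the day 4 oral, day 4 facial and unwounded oral spots at every rank.

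Set beside the 50 highest spots of day 4 facial skin, 660 of 5504 genes were higher in the inflamed spots (12%) and 832 lower (15.1%), or 983 and 554 with TMM factors. The all-gene median log2 ratio was -0.15. These day 4 spots were chosen on few UMIs of the score genes, so they need not mark inflamed tissue. Because the score genes chose the spots in both sections, their folds are a description only. Cxcl2 was at 7133 CPM in inflamed spots and 73.7 CPM in the day 4 facial spots (96.8-fold), and Il1b at 8229.7 and 128 CPM (64.3-fold). Outside the score, Hdc was 46.9-fold, Cstdc4 51.6-fold and S100a8 28.5-fold higher, and 13 of 14 neutrophil markers were higher with none lower.

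Genes lower in the inflamed spots than in day 4 facial skin included those of matrix and macrophages. All 12 fibroblast markers were lower, and Col1a1, a chain of type I collagen, was at 832 CPM in inflamed spots and 15889 CPM in the day 4 spots. Cthrc1, a collagen-associated protein gene, was at 17.8 CPM in inflamed spots and 1451 CPM in the day 4 spots (81.4-fold lower), and Lox had 2 UMIs in inflamed spots against 165. Of 13 monocyte and macrophage markers 10 were lower and 1 higher, with Lyz2 at 267 CPM in inflamed spots and 1664 CPM in the day 4 spots. Gas6 was at 62.4 CPM in inflamed spots and 466 CPM in the day 4 spots (7.46-fold lower), and Axl at 38.6 and 109 CPM (2.81-fold lower). Animal and day are confounded between these facial sections and cannot be told apart. The sections also differed in Xist and the Y-linked genes.

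Against the 50 highest spots of day 4 oral mucosa, 818 of 5490 genes were higher (14.9%) and 750 lower (13.7%), or 981 and 580 with TMM factors, with an all-gene median log2 ratio of -0.09. The score genes were higher, from Ccl3 (53.4-fold) and Cxcl2 (34-fold) to Il1b (7.83-fold) and Cd14 (4.16-fold). Calprotectin differed less, with S100a8 at 11727 CPM in inflamed spots and 7460.4 CPM in the day 4 oral spots, and 9 of 14 neutrophil markers were higher. Immediate early genes were higher in 13 of 14 cases with none lower. Of the 50 oral spots 6 had a barcode of an inflamed spot, and without them each score gene was still higher in the inflamed spots. The score genes chose the spots in both sections, so their differences are a description and give no separate support.

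Of 4 CXC chemokines outside the score with enough UMIs, 2 were lower in the inflamed spots than in day 4 oral mucosa and none higher. Cxcl5, made by epithelial cells, was at 20.8 CPM in inflamed spots and 1657 CPM in the day 4 oral spots (79.7-fold lower). Ppbp, which platelets and some myeloid cells make, was at 8.91 CPM in inflamed spots, from 3 UMIs, and 3195 CPM in the oral spots (358-fold lower, 95% interval 122 to 1741). Cxcl3 was at 588 CPM in inflamed spots and 961 CPM in the oral spots, and Cxcl1 at 71.3 and 142 CPM, and neither was called. Lyz2 was at 267 CPM in inflamed spots and 2776 CPM in the oral spots, and Arg1 at 258 and 1512 CPM, both lower in the inflamed spots.

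Epithelial genes also differed between these spot sets. All 14 cornifying markers with enough UMIs were higher in the inflamed spots, with Krt10 at 5146 CPM in inflamed spots and 19.3 CPM in the oral spots, and Flg and Casp14 had 0 UMIs in the oral spots. Krt13, a keratin of mucosal epithelium, was at 11.9 CPM in inflamed spots and 4314 CPM in the oral spots, and Krt4 and Sprr3 had 0 UMIs in the inflamed spots. Tissue, animal and day are confounded between these sections and cannot be told apart, and the sections also differed in Xist and the Y-linked genes.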

How the data were processed

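The authors deposited 1 Visium matrix of raw UMI counts per section, and the file headers give Space Ranger 1.3.1. Per the submitters' processing notes, Seurat and the mm10 build were also used. For the aligner, annotation and Seurat version, details were not given in the sources used here. All matrices held 32285 genes, 38 symbols of which were shared by more than 1 gene. Counts were summed over the 50 inflamed spots and over each set they were compared with, and CPM is the count per 1000000 UMIs of that sum. A gene was called at a 2-fold or larger ratio with 95% exact Poisson intervals apart and at least 20 UMIs over both sets, and list medians used log2 of CPM plus 10. A count of 0 was set against a floor of 3 UMIs over the summed spots. Steps were counted on the array grid.

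The 43 gene lists hold 490 genes, of which 485 matched by symbol and 2 by synonym, and Clec7a, Mx1 and Krt85 were not used here. The members and lists were chosen with earlier results of these data known. Genes were named by rule: the 6 score genes, up to 5 per list by size of ratio, the 20 largest and 12 smallest ratios among genes of 100 or more UMIs that kept 1 direction in 5 blocks of 10 inflamed spots, the Gas6 signalling genes, and the 8 highest and 8 lowest against each day 4 section. All other genes named, such as S100a9, Csf3r, Ly6g, Lgals7 and Cybb, were added after their values were seen.

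Promoters and coordinates are RefSeq's on GRCm38.p6. The calling step was tested on simulated counts that held Poisson counting error only. They had no differences between spots, so the test does not cover false calls from such differences. Alternatives covered the number of spots, depth, scaling, the set of other spots, the count minimum and blocks of spots. Python 3.11.15, numpy 2.4.6, scipy 1.17.1, pandas 2.3.3 and matplotlib 3.10.9 were used.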

Additional observations from a re-analysis of the deposited data

How the results depend on the processing

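Choosing 25 spots gave a largest patch of 24, and choosing 100 gave 77. Against the other spots, 404 genes were higher and 311 lower with 100 spots (65 and 38 list members), 495 and 519 with spots of at least 5000 UMIs (71 and 57), 398 lower (21 list members) against spots within 3 steps, and 564 lower with TMM factors. Neutrophil markers at 1 step, 5152 CPM, were at 6818 CPM as a mean over spots and at 19069 CPM with 25 spots, where that ring holds other inflamed spots. Against day 4 facial skin the counts were 372 and 316 with 25 spots, 262 and 174 at a minimum of 100 UMIs, and 554 lower with TMM. Against day 4 oral mucosa they were 415 and 377 with 25 spots, 255 and 261 at 100 UMIs, and 1266 higher with 100 spots. Fewer spots or genes enter by construction with 25 spots or 100 UMIs, and the cause of the other shifts was not tested. Log2 ratios that turned sign with 25 spots were Flg -0.25, Lce1a1 -0.77, Lor -0.72, Sprr2d -0.40 and Wfdc12 -0.99. With 100 spots Mmp14 was at 0.57 and the basal keratinocyte and endothelial medians at 0.036 and 0.040. At 5000 UMIs the metalloproteinase median was -0.029, and with no count minimum the granule median was -0.012. Against spots within 3 steps, the medians of monocyte and macrophage (0.77), dendritic cell (0.11) and erythrocyte genes (0.56) turned, as did Dpt 0.36, Hba-a1 0.80, Lbp 0.11 and Ms4a6c 0.048. Within the same tissue piece the erythrocyte median was 0.75 and Hba-a1 0.94. Leaving out each block of 10 inflamed spots gave 708 to 763 genes higher and 961 to 1105 lower. No paired analysis was possible because each group held 1 section.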
